A study of Mus musculus with 12 samples.

Results

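The 9 genes described here encode proteins of the primary (azurophil) granule of neutrophils, or proteins that process or accompany them: Mpo, Elane, Prtn3, Ctsg, Ctsc, Prss57, Ms4a3, Fcnb and Cd63. They were taken from the gene count table by symbol, as 9 of its 37310 rows, and all 9 passed the filter on low counts that left 12917 genes for testing. The members were chosen by their levels in Runx1KO and Control libraries, after Cd63, Ms4a3, Prss57 and Fcnb had been seen to be lower in Runx1KO libraries, so every Runx1KO against Control value of a member is a description and carries no test. The responses to LPS were not used for that choice and were tested.

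Primary granules form early in the bone marrow, at the promyelocyte stage, and are filled with myeloperoxidase and serine proteases made as inactive precursors. Transcription of most of their contents falls as the cell matures, while the stored protein persists in the mature neutrophil, so a low transcript level in sorted neutrophils says little about stored protein. Cathepsin C trims the serine protease precursors to their active form, and CD63, a tetraspanin, sits in the granule membrane in human neutrophils.

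RNA was counted in 12 libraries of C57BL/6 mouse bone marrow cells sorted as CD11b+, Ly6G+, Siglec F- and F4/80-, a gate for neutrophils. Cells from crushed hind limbs were kept for 2 h with 100 ng/mL lipopolysaccharide (LPS, a bacterial wall component sensed by Toll-like receptor signalling) or with vehicle. Runx1 is a transcription factor of blood cells. The 4 groups of 3 libraries were Runx1KO with LPS, Runx1KO with vehicle, Control with LPS and Control with vehicle. The sources used here do not give the alleles, or any driver, behind the Runx1KO label. The series text describes the Control as LKS- cells (a progenitor fraction) from marrow pooled from 1 Runx1f/f and 1 Runx1f/- animal, the second of which has a germline mutation of 1 Runx1 allele, whereas the label of each Control library describes sorted neutrophils. This bears on every Runx1KO against Control value. The labels do not state that a group's 3 libraries are from different mice; the p-values below therefore reflect only how far these libraries scatter.

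Totals ranged from 19023610 to 26225169 counts per library, and the members together took 0.0176 to 0.0504% of them. CPM below are counts brought to 1 common library total with TMM factors. The summed level of 12 mature neutrophil markers was 111000 to 143000 CPM in Runx1KO LPS, 75100 to 108000 CPM in Runx1KO vehicle, 103000 to 129000 CPM in Control LPS and 103000 to 123000 CPM in Control vehicle libraries, and 0 of the 12 were at 0 in any group. Most of that sum is S100a9, S100a8 and Retnlg. Between Runx1KO and Control, 9 of the 12 had a negative log2 fold change and 3 a positive one in each treatment. The median was -0.31 after LPS and -0.29 with vehicle, and edgeR called 0 of the 12 in either comparison. Ly6g, the gene of a marker used in the sort, named after its values were seen, averaged 221 ± 112 CPM in Runx1KO LPS, 137 ± 26.9 CPM in Runx1KO vehicle, 422 ± 42.6 CPM in Control LPS and 406 ± 21.2 CPM in Control vehicle libraries (SD, n = 3 each). Between Runx1KO and Control libraries it differed by -0.93 on the log2 scale (SE 0.33, edgeR adjusted p = 0.315, DESeq2 0.118) after LPS and -1.56 (SE 0.33, edgeR adjusted p = 0.0521, DESeq2 0.000371) with vehicle, where DESeq2 called it lower and edgeR did not. Its part in the members' genotype differences was not tested. Summed over 10 stem and progenitor markers, the levels were 20 to 63.1, 21.2 to 28.3, 17.4 to 26.9 and 13.5 to 24.1 CPM in the same order. Of these 8 were tested, and edgeR called 0 between Runx1KO and Control in either treatment. At an unadjusted edgeR p under 0.05, 3 were higher after LPS and 2 with vehicle, and 0 lower. DESeq2 called 1 and 2 higher and 0 lower. Their median log2 fold change was 1.02 after LPS and 0.51 with vehicle. Their part in the members' differences was not tested. Xist, the female X-inactivation RNA, had 0 counts in the 4 libraries numbered 2 and 42.4 to 65.7 CPM in the other 8, so each group held libraries of both kinds. The library numbered 2 of each group therefore came from other animals than those numbered 1 and 3, and its scatter from them is not technical alone. Whether 1 and 3 are separate animals is not given. Runx1 itself was counted at 58.3, 68.6 and 43.7 CPM in Runx1KO LPS, 60.5, 68.4 and 75.4 CPM in Runx1KO vehicle, 32.3, 50.9 and 26.1 CPM in Control LPS and 36.8, 56.2 and 38.7 CPM in Control vehicle libraries 1, 2 and 3. A count over the whole gene does not check the label where the deleted part is unknown. In bulk RNA, fewer cells of a type and less RNA per cell cannot be told apart, and this holds for every level below.

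The members fell into sets with different patterns. Mpo and the serine protease genes Elane, Prtn3 and Ctsg moved together from library to library and overlapped between genotypes with vehicle. Cd63, Fcnb, Ms4a3 and Prss57 were lower in Runx1KO libraries, and Ctsc, which encodes the enzyme that activates the proteases, was higher in Runx1KO libraries after LPS. The plot of all 9 genes by library shows these patterns.

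**Figure D1:**
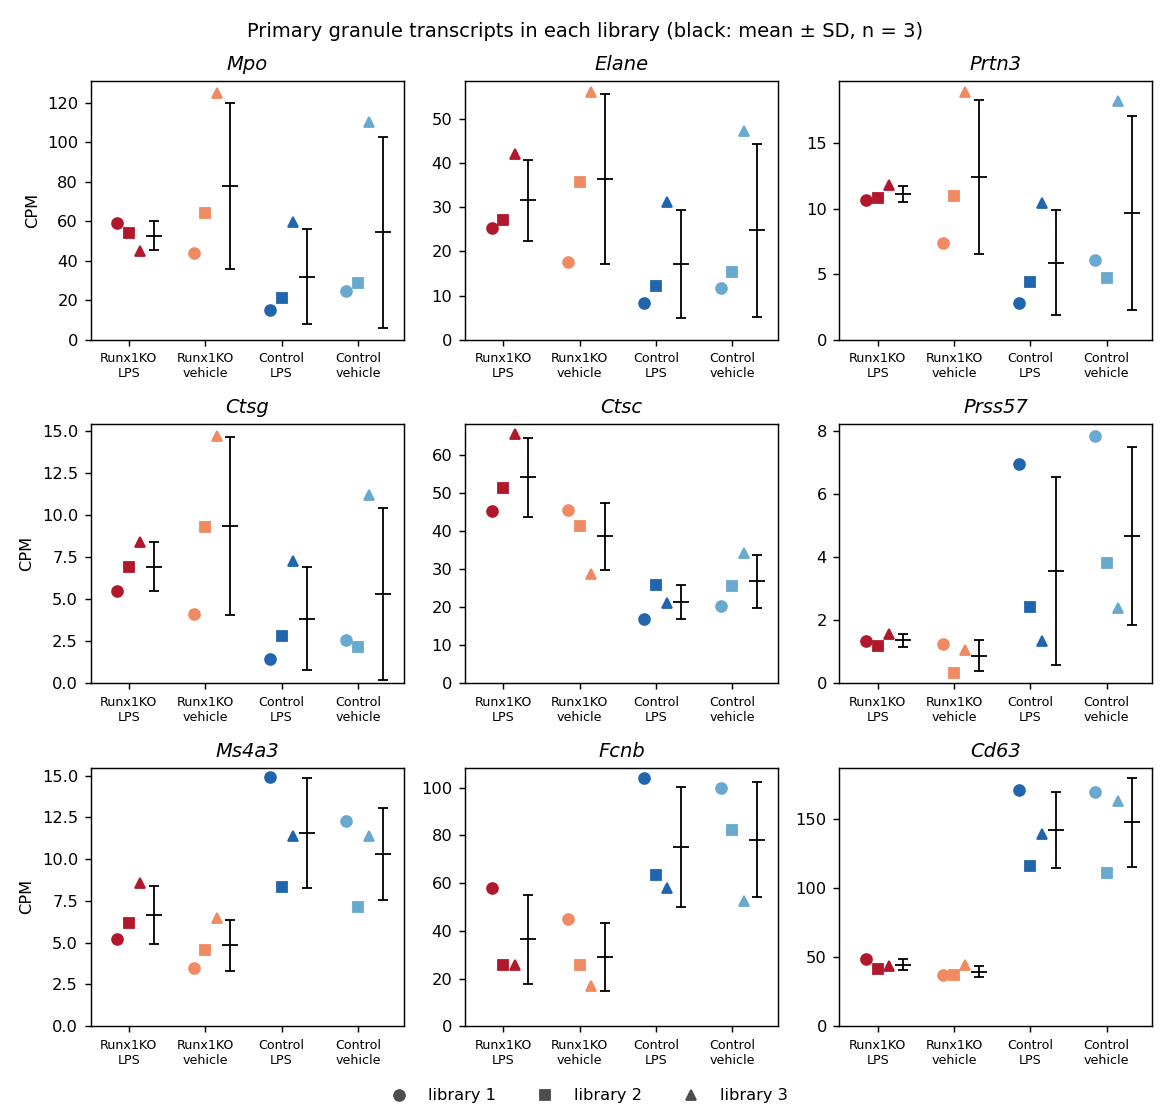
Level of each member in each of the 12 libraries, in CPM on a linear axis from 0, with symbols for library numbers 1, 2 and 3 and the mean and SD of the 3 libraries in black. Cd63 lies at 37.1 to 48.9 CPM in the 6 Runx1KO libraries and at 111 to 171 CPM in the 6 Control libraries, whereas Mpo spans 44.0 to 125 CPM in Runx1KO vehicle and 24.5 to 110 CPM in Control vehicle libraries.

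Mpo (ENSMUSG00000009350.7) encodes myeloperoxidase, the heme enzyme that makes hypochlorous acid in the phagosome. Its level was 59.2, 54.0 and 44.8 CPM in Runx1KO LPS libraries 1, 2 and 3, and 44.0, 64.1 and 125 CPM in Runx1KO vehicle libraries. In Control cells it was 15.1, 21 and 59.4 CPM with LPS, and 24.5, 28.5 and 110 CPM with vehicle. Library 3 held the highest value in every group except Runx1KO LPS, where it held the lowest, and the Runx1KO and Control ranges overlapped in both treatments. Runx1KO against Control gave a log2 fold change of 0.73 (SE 0.64) after LPS and 0.51 (SE 0.63) with vehicle, where it ran from -0.01 to 1.55 with libraries left out.

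Elane (ENSMUSG00000020125.6) encodes neutrophil elastase, whose human counterpart is mutated in severe congenital neutropenia. It was at 25.3, 27.2 and 42.2 CPM in Runx1KO LPS, 17.5, 35.7 and 56.1 CPM in Runx1KO vehicle, 8.37, 12.1 and 31.2 CPM in Control LPS and 11.7, 15.3 and 47.3 CPM in Control vehicle libraries. Prtn3 (ENSMUSG00000057729.6), which encodes proteinase 3, was at 10.7, 10.8 and 11.8 CPM in Runx1KO LPS, 7.41, 11 and 18.9 CPM in Runx1KO vehicle, 2.81, 4.40 and 10.4 CPM in Control LPS and 6.09, 4.71 and 18.2 CPM in Control vehicle libraries. Ctsg (ENSMUSG00000040314.1), the gene of cathepsin G, was at 5.48, 6.92 and 8.38 CPM in Runx1KO LPS, 4.09, 9.31 and 14.7 CPM in Runx1KO vehicle, 1.40, 2.78 and 7.30 CPM in Control LPS and 2.56, 2.16 and 11.2 CPM in Control vehicle libraries. All 3 protease genes were highest in library 3 of every group. With vehicle the genotypes overlapped for all 3, and after LPS they separated for Prtn3, where the lowest Runx1KO library stood at 10.7 CPM and the highest Control library at 10.4 CPM. Their log2 fold changes of Runx1KO against Control were 0.87 (SE 0.61), 0.92 (SE 0.57) and 0.85 (SE 0.71) after LPS for Elane, Prtn3 and Ctsg. With vehicle the same genes had 0.56 (SE 0.61), 0.36 (SE 0.56) and 0.82 (SE 0.71).

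These 4 transcripts rose and fell together across the libraries. Over the 12 libraries the 6 pairwise Pearson correlations of log2 CPM lay between 0.94 and 0.98, and between 0.93 and 0.98 after the group means were removed. The points share library depth and preparation. They also share library numbers across the groups, a pattern that removing group means leaves in place. The 12 points are therefore not independent, and the correlations are a description and carry no test. These limits hold for every correlation between members below. Per 100 Mpo counts there were 39.8 to 94.2 Elane counts, 15.2 to 26.3 Prtn3 counts and 7.57 to 18.7 Ctsg counts. The highest of each ratio came from Runx1KO LPS library 3, which had the lowest TMM factor of the 12 (0.699). Among 7070 genes with a symbol and a mean log2 CPM of at least 2, the 3 whose levels were most like those of Mpo over the 12 libraries were Prtn3 (r = 0.967, rho = 0.895), Ctsg (r = 0.945, rho = 0.923) and Elane (r = 0.937, rho = 0.916).

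The windows upstream of the start of these 4 genes are shown because the transcripts moved together. They are the 250 bases before the start in RefSeq on GRCm38.p6, on the gene's strand, at chr11:87793534-87793783 (plus strand, Mpo), chr10:79886062-79886311 (plus strand, Elane), chr10:79879417-79879666 (plus strand, Prtn3) and chr14:56102575-56102824 (minus strand, Ctsg). Capitals mark GAGGAA, the core letters bound by PU.1, a myeloid factor, or TTCCTC, the same letters read on the other strand, and in Ctsg also ACCACA, which is TGTGGT on the other strand, the core letters bound by RUNX factors.
Mpo: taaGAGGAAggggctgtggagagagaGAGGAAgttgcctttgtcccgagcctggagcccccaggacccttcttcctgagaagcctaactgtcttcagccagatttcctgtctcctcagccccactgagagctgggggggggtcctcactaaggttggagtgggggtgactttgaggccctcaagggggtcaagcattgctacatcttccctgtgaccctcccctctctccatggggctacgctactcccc
Elane: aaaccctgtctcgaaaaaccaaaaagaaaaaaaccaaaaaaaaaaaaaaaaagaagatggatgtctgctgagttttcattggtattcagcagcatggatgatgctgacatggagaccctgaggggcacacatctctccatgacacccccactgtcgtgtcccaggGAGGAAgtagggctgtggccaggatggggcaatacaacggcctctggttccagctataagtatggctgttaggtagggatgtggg
Prtn3: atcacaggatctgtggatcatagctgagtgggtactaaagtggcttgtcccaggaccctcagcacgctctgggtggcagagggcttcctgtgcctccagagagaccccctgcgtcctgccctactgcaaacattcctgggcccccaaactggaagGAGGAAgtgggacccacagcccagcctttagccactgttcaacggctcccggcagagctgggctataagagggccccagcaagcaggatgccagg
Ctsg: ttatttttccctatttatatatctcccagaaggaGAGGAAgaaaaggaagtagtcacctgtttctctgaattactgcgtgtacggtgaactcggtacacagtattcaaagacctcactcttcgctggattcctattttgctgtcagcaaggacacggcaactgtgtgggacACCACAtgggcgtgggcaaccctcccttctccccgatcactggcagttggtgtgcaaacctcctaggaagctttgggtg
The PU.1 letters were searched on both strands and occurred in 6 of the 8 member windows that RefSeq gave (those of Mpo, Elane, Prtn3, Ctsg, Cd63 and Ctsc), beside 23.3% of all 32851 windows of the same length. In Elane and Prtn3 they lay 85 and 95 bases upstream of the start. The RUNX letters, also searched on both strands, occurred in 1 of the 8 member windows, beside 14% of all windows. A match is a run of letters and not a bound site, and no binding was measured here.

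Fcnb and Prss57 ran opposite to this set. Fcnb (ENSMUSG00000026835.9) encodes ficolin B, a lectin that starts complement activation. It was at 57.8, 25.7 and 25.7 CPM in Runx1KO LPS, 44.8, 25.5 and 16.8 CPM in Runx1KO vehicle, 104, 63.4 and 58.0 CPM in Control LPS and 100, 82.4 and 52.5 CPM in Control vehicle libraries 1, 2 and 3. Library 1 was the highest of every group, and the Runx1KO libraries lay below the Control libraries in both treatments. After LPS the closest values were 57.8 CPM in Runx1KO library 1 and 58.0 CPM in Control library 3. Between Runx1KO and Control the log2 fold change was -1.04 (SE 0.44) after LPS and -1.43 (SE 0.45) with vehicle. Its correlations with Mpo, Elane, Prtn3 and Ctsg over the 12 libraries were -0.71 to -0.83, and -0.65 to -0.80 after the group means were removed.

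Prss57 (ENSMUSG00000020323.8) encodes a granule serine protease that cleaves after arginine. It was the least counted member, with 31, 26 and 28 counts in Runx1KO LPS, 31, 7 and 30 in Runx1KO vehicle, 139, 48 and 28 in Control LPS and 187, 95 and 56 in Control vehicle libraries. These counts came to 1.33, 1.17 and 1.57 CPM in Runx1KO LPS, 1.25, 0.31 and 1.05 CPM in Runx1KO vehicle, 6.97, 2.43 and 1.32 CPM in Control LPS and 7.85, 3.80 and 2.37 CPM in Control vehicle libraries. With vehicle every Runx1KO library lay below every Control library. After LPS the groups overlapped, as Control library 3 stood at 1.32 CPM, below Runx1KO libraries 1 and 3. As a log2 fold change, Runx1KO against Control was -1.39 (SE 0.67) after LPS and -2.41 (SE 0.68) with vehicle. Without Control LPS library 1 the value after LPS was -0.47. Over the 12 libraries the correlations of Prss57 with Mpo, Elane, Prtn3 and Ctsg were -0.64 to -0.75, and -0.61 to -0.67 after the group means were removed. They rest on low counts in the Runx1KO libraries, at 7 to 31 in each, and Prss57 hardly varied among the Runx1KO LPS libraries.

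Set against Elane, Prss57 varied far more between libraries than Elane, Prtn3 or Ctsg did against Mpo. Per 100 Elane counts there were 5.25, 4.29 and 3.73 Prss57 counts in Runx1KO LPS, 7.16, 0.868 and 1.87 in Runx1KO vehicle, 83.2, 20 and 4.22 in Control LPS and 67, 24.8 and 5 in Control vehicle libraries 1, 2 and 3. The Control ratio differed between libraries of 1 treatment by more than it differed between treatments, and Control library 3 of each treatment lay within the Runx1KO range of 0.868 to 7.16. Prss57 shares 1157 exonic bases with Fstl3 on the opposite strand in the GENCODE M21 annotation, and since the strand setting of the counting is unknown, reads of the pair may be mixed. The same holds for Mpo, which shares 512 exonic bases with the antisense gene Gm11505, and for Prtn3, which shares 159 with Plppr3. The nearest measured neighbours, Fstl3, Rnf126, Palm and Ptbp1, did not pass edgeR's test in either genotype comparison (Benjamini-Hochberg adjusted p = 0.814 to 1). Palm also varied by library number, with 2402, 306 and 183 counts in Runx1KO LPS, 2022, 418 and 1538 in Runx1KO vehicle, 1852, 773 and 350 in Control LPS and 2197, 1223 and 490 in Control vehicle libraries.

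**Figure D2:**
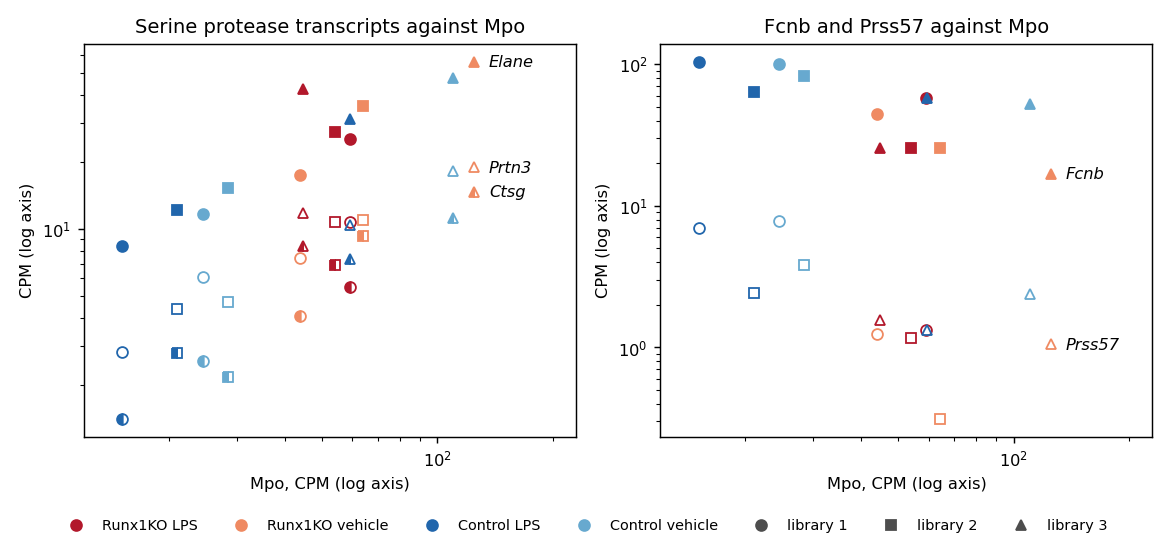
Serine protease transcripts (left: Elane filled, Prtn3 open, Ctsg partly filled symbols) and Fcnb and Prss57 (right: filled and open) against Mpo in the 12 libraries, in CPM on log axes, coloured by group with symbols for library number. The protease genes rise along the Mpo axis in both genotypes and Fcnb and Prss57 run down it, from 104 and 6.97 CPM in Control LPS library 1, where Mpo was at 15.1 CPM. Prss57 held only 7 to 31 counts in each Runx1KO library.

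Ms4a3 (ENSMUSG00000024681.4) encodes a membrane protein of granulocyte and monocyte progenitors. It was at 5.22, 6.15 and 8.6 CPM in Runx1KO LPS, 3.48, 4.57 and 6.45 CPM in Runx1KO vehicle, 14.9, 8.35 and 11.4 CPM in Control LPS and 12.3, 7.15 and 11.4 CPM in Control vehicle libraries. With vehicle the genotypes did not overlap, and after LPS they overlapped by the margin between Runx1KO library 3 (8.6 CPM) and Control library 2 (8.35 CPM). Runx1KO differed from Control by a log2 fold change of -0.80 (SE 0.34) after LPS and -1.09 (SE 0.34) with vehicle. Runx1KO library 3 and Control library 1 were the highest of their groups in both treatments.

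Cd63 (ENSMUSG00000025351.7) separated the genotypes most clearly. It was at 48.9, 41.3 and 43.5 CPM in Runx1KO LPS, 37.2, 37.1 and 44.1 CPM in Runx1KO vehicle, 171, 116 and 139 CPM in Control LPS and 170, 111 and 163 CPM in Control vehicle libraries. Every Runx1KO library of either treatment lay below every Control library of either treatment, which was so for no other member. The means were 44.6 ± 3.93 CPM in Runx1KO LPS, 39.5 ± 4.04 CPM in Runx1KO vehicle, 142 ± 27.8 CPM in Control LPS and 148 ± 32.3 CPM in Control vehicle libraries (SD, n = 3 each). Runx1KO against Control gave a log2 fold change of -1.67 (SE 0.25) after LPS and -1.91 (SE 0.25) with vehicle, that is 0.314 and 0.267 of the Control level.

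Reads of Cd63 and of its processed copy can be counted under either name, and which way they were exchanged was not tested. Cd63-ps (ENSMUSG00000085939.2) had 51.0 to 62.4 counts per 100 Cd63 counts in each of the 12 libraries. The sum of Cd63 and Cd63-ps was 62.4 to 74.6 CPM in Runx1KO LPS, 56.0 to 71.7 CPM in Runx1KO vehicle, 184 to 268 CPM in Control LPS and 173 to 276 CPM in Control vehicle libraries, so the genotypes were as separate for the sum as for Cd63 alone. The plot of count ratios shows both ratios by library. Over the 12 libraries the 3 genes most like Cd63 among the 7070 screened were Cd63-ps (r = 0.996, rho = 0.965), Nrp1 (r = 0.982, rho = 0.888) and Srpk2 (r = 0.977, rho = 0.923). Group means were not removed for this ranking, so a gene with a like gap between the genotypes ranks high whatever its course within a group. Cd63-ps may hold reads of Cd63 itself, so its place in the ranking need not reflect a separate gene. The ranking is a description and carries no test. Nrp1, which encodes the receptor neuropilin-1, averaged 0.959 ± 0.358 CPM in Runx1KO LPS, 1.41 ± 0.504 CPM in Runx1KO vehicle, 24.3 ± 11.3 CPM in Control LPS and 23.1 ± 7.61 CPM in Control vehicle libraries (SD, n = 3 each). The nearest measured neighbours of Cd63, which are Ormdl2, Sarnp, Rdh5 and Bloc1s1, did not pass edgeR's test in either genotype comparison (adjusted p = 0.757 to 1).

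**Figure D3:**
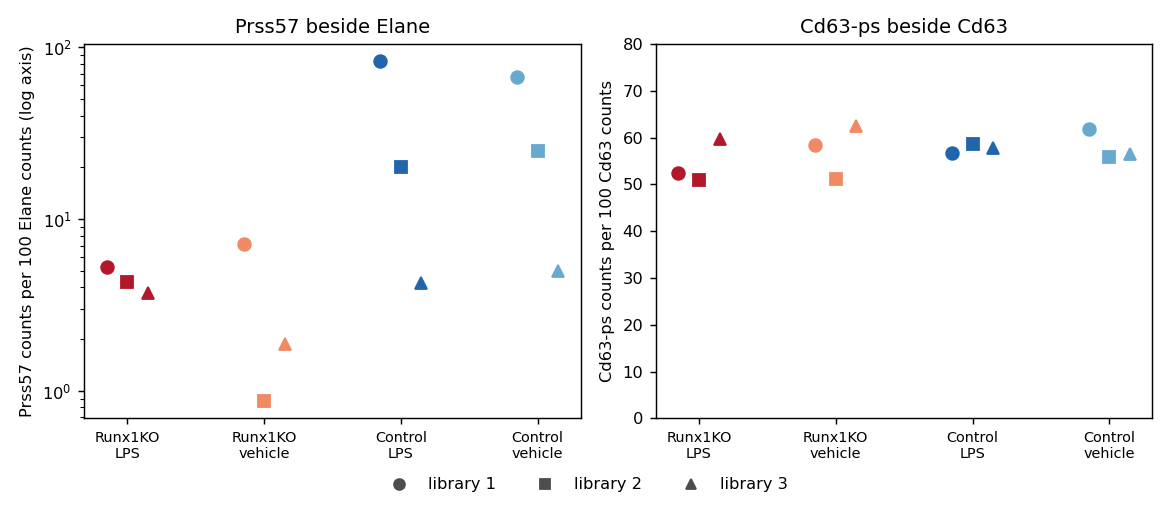
Prss57 counts per 100 Elane counts (left, log axis) and Cd63-ps counts per 100 Cd63 counts (right, axis from 0) in each library, with symbols for library number. The Prss57 ratio runs from 4.22 to 83.2 among the Control LPS libraries, while the Cd63-ps ratio stays between 51.0 and 62.4 in all 12.

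The upstream windows of these genes are shown for comparison with the protease set. They lie at chr19:11640852-11641101 (minus strand, Ms4a3), chr2:28084879-28085128 (minus strand, Fcnb) and chr10:128909095-128909344 (plus strand, Cd63), from RefSeq on GRCm38.p6, and capitals mark the PU.1 letters in Cd63 and the C/EBP letters TTGCNNAA on either strand in Fcnb.
Ms4a3: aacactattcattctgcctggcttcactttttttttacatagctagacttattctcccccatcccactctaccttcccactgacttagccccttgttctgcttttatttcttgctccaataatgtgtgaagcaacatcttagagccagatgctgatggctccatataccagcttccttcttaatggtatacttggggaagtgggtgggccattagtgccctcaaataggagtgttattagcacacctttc
Fcnb: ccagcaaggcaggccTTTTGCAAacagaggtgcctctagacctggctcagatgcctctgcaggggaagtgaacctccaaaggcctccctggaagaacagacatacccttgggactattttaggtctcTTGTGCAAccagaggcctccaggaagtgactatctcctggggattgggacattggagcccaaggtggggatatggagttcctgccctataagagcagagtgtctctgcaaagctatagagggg
Cd63: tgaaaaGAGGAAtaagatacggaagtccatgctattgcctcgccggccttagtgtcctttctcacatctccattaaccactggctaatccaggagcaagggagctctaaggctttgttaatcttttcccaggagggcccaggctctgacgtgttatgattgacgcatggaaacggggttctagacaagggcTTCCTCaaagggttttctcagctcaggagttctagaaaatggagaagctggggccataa
The C/EBP letters occurred in 1 of the 8 member windows, Fcnb, at 235 and 123 bases upstream of the start, beside 9.56% of all windows. None of the 3 letter runs searched occurred in the Ms4a3 window.

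Ctsc (ENSMUSG00000030560.9) encodes cathepsin C. It was at 45.3, 51.3 and 65.6 CPM in Runx1KO LPS, 45.6, 41.4 and 28.7 CPM in Runx1KO vehicle, 16.8, 25.8 and 21.1 CPM in Control LPS and 20.3, 25.5 and 34.3 CPM in Control vehicle libraries. After LPS every Runx1KO library lay above every Control library, and with vehicle Runx1KO library 3 (28.7 CPM) lay below Control library 3 (34.3 CPM). Between Runx1KO and Control the log2 fold change was 1.35 (SE 0.29) after LPS and 0.53 (SE 0.28) with vehicle. The log2 fold changes of Cd63 and Ctsc between the genotypes had opposite signs in both treatments. There were 66.4 to 154 Cd63 counts per 100 Ctsc counts in the 6 Runx1KO libraries and 435 to 1020 in the 6 Control libraries. Cd63 alone separated these libraries, so the gap in the ratio does not show that Ctsc moved.

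Counted over the 9 members, 4 were lower in Runx1KO vehicle than in Control vehicle libraries without overlap (Prss57, Ms4a3, Fcnb and Cd63) and 0 were higher, beside 7.82% and 5.42% of all 12917 genes tested. After LPS 2 members were lower without overlap (Fcnb and Cd63) and 2 higher (Prtn3 and Ctsc), beside 6.76% and 6.51% of all genes. Over all 6 libraries of each genotype 1 member, Cd63, was lower without overlap, beside 2.49% of all genes, and 0 were higher, beside 1.72%. Since the members were chosen with these differences known, nothing is read from the counts. The median log2 fold change of the members was 0.73 after LPS and 0.36 with vehicle, beside 0.031 and 0.002 over all genes. The plot of genotype differences shows the sets.

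**Figure D4:**
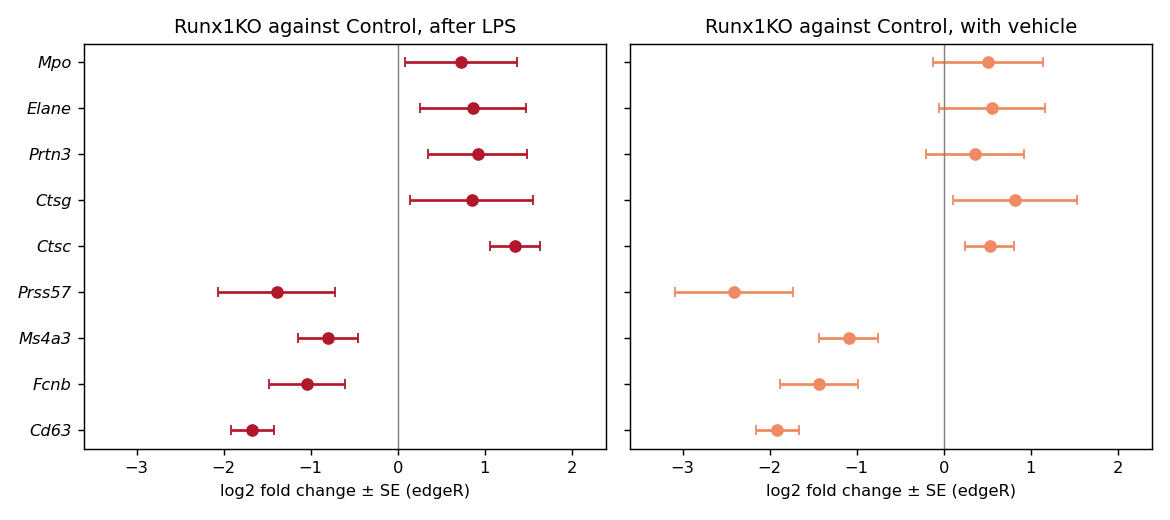
Log2 fold change of Runx1KO against Control for each member, with the SE derived from edgeR's F statistic, after LPS (left) and with vehicle (right). Mpo, Elane, Prtn3, Ctsg and Ctsc lie above 0 in both panels (0.36 to 1.35) and Prss57, Ms4a3, Fcnb and Cd63 below 0 in both (-0.80 to -2.41).

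Per kilobase of merged exon, the order of the members differed between the genotypes. The merged length takes in the exons of all annotated transcripts of a gene, at 3682 bases for Cd63 and 984 for Elane. Where it exceeds the length of the transcript present, the level per kilobase is understated. The transcripts present were not determined, so the order of different genes is rough. In Runx1KO vehicle libraries the mean level was 37.1 CPM per kb for Elane, 22.7 for Mpo, 21.7 for Fcnb, 10.7 for Cd63, 9.06 for Ctsg, 7.16 for Prtn3, 6.65 for Ctsc, 2.56 for Ms4a3 and 0.307 for Prss57. In Control vehicle libraries it was 58.6 CPM per kb for Fcnb, 40.2 for Cd63, 25.2 for Elane, 15.9 for Mpo, 5.58 for Prtn3, 5.47 for Ms4a3, 5.13 for Ctsg, 4.60 for Ctsc and 1.64 for Prss57. Elane, Mpo and Fcnb overlapped in the Runx1KO vehicle libraries, at 17.8 to 57.0, 12.9 to 36.5 and 12.5 to 33.5 CPM per kb, so their order there is within the spread. Fcnb (39.2 to 74.7 CPM per kb), Cd63 (30.1 to 46.2) and Elane (11.9 to 48.1) overlapped in the Control vehicle libraries. Prss57 was the lowest of the 9 in every library group, including 0.478 CPM per kb in Runx1KO LPS and 1.26 CPM per kb in Control LPS libraries. The exon lengths come from GENCODE M21, an annotation of another genome build than the authors' alignment.

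LPS for 2 h was then compared with vehicle. By edgeR's quasi-likelihood test 0 of 9 members passed in either genotype, and no member separated the LPS from the vehicle libraries. Over all genes 0 of 12917 were called in Runx1KO cells (0%) and 0 in Control cells (0%), while 676 (5.23%) and 78 (0.604%) had an unadjusted p under 0.05. With no change at all a share near 0.05 would be awaited, so edgeR's test was conservative in Control cells. Library number was not in this fit. With it as a block, 1145 and 158 genes had an unadjusted p under 0.05 and 0 were called in either genotype. The lack of calls therefore does not show that LPS had no effect. DESeq2 called 1 gene in Runx1KO cells, the immunoglobulin gene Ighg2c, and 0 in Control cells. The smallest two-sided p that exact permutation of 3 against 3 libraries allows is 0.1, which is why spread was shared across genes.

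In Runx1KO cells the log2 fold changes of LPS against vehicle were -0.56 (SE 0.63) for Mpo, -0.44 (SE 0.70) for Ctsg, -0.21 (SE 0.61) for Elane and -0.16 (SE 0.56) for Prtn3. They were positive for the other members, at 0.62 (SE 0.68) for Prss57, 0.49 (SE 0.28) for Ctsc, 0.46 (SE 0.34) for Ms4a3, 0.33 (SE 0.44) for Fcnb and 0.18 (SE 0.24) for Cd63. The Benjamini-Hochberg adjusted p of edgeR's test ran from 0.873 for Ctsc to 0.993 for Prtn3, and the smallest unadjusted p of that test among the members was 0.11, for Ctsc. The SE exceeded the size of the value for every member except Ctsc and Ms4a3. The SE of Cd63, Ctsc and Ms4a3 was smaller than that of the other members, as these genes varied less between libraries. The members' median was 0.18 with 5 of 9 positive, beside 0.028 and 52.6% over all genes.

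In Control cells the log2 fold changes were -0.77 (SE 0.64) for Mpo, -0.72 (SE 0.57) for Prtn3, -0.52 (SE 0.61) for Elane, -0.47 (SE 0.71) for Ctsg, -0.39 (SE 0.64) for Prss57, -0.33 (SE 0.28) for Ctsc, -0.07 (SE 0.44) for Fcnb, -0.06 (SE 0.24) for Cd63 and 0.17 (SE 0.34) for Ms4a3. The adjusted p of edgeR's test was 1 for all 9. The members' median was -0.39 with 1 of 9 positive, beside -0.02 and 46.3% over all genes. Groups that did not overlap between LPS and vehicle were found for 0 of 9 members in either genotype, beside 3.51% higher and 3.2% lower of all genes in Runx1KO cells and 2.84% higher and 2.32% lower in Control cells.

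Set against the vehicle library of the same number, which the labels do not describe as the same animal, Mpo, Elane and Prtn3 were lower with LPS in 5 of 6 pairs each and Ctsg in 4 of 6. The pair that went the other way for Mpo, Elane and Prtn3 was Runx1KO number 1, at log2 ratios of 0.43, 0.53 and 0.53. Ms4a3 and Fcnb were higher with LPS in 5 of 6 pairs each, Cd63 in 4 of 6, and Prss57 and Ctsc in 3 of 6. For Prss57 the split followed genotype, with 3 of 3 Runx1KO pairs higher (0.08, 1.91 and 0.58) and 3 of 3 Control pairs lower (-0.17, -0.64 and -0.85). The 1.91 rests on a vehicle library with 7 counts.

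**Figure D5:**
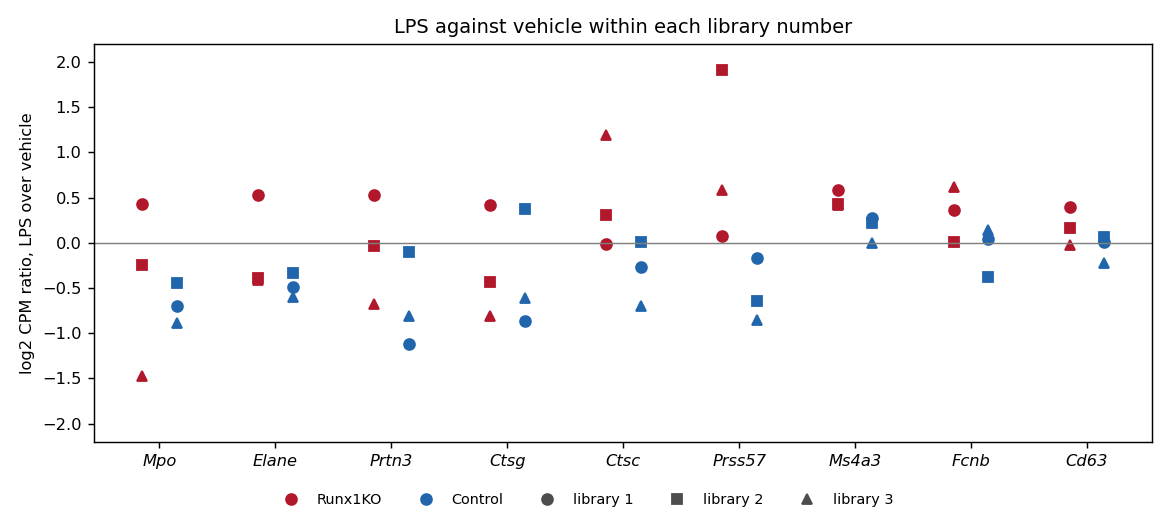
Log2 ratio of CPM, LPS over vehicle, for each member within each library number, with Runx1KO left of Control. Mpo, Elane and Prtn3 lie below 0 in 5 of 6 pairs, and Cd63 stays between -0.22 and 0.40.

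The LPS response in Runx1KO cells minus that in Control cells was positive for all 9 members, beside 55.1% of all genes tested. Mpo, Elane, Prtn3 and Ctsg moved together, so the 9 signs are not separate observations. Under 21 alternatives the sign held in 12 for Ctsg, 16 for Mpo, 18 for Elane, 20 for Prtn3 and Fcnb, and 21 for the others. The value was 1.01 (SE 0.93) on the log2 scale for Prss57, 0.82 (SE 0.40) for Ctsc, 0.56 (SE 0.80) for Prtn3, 0.39 (SE 0.62) for Fcnb, 0.32 (SE 0.86) for Elane, 0.29 (SE 0.48) for Ms4a3, 0.23 (SE 0.34) for Cd63, 0.21 (SE 0.89) for Mpo and 0.03 (SE 0.99) for Ctsg. These values share their libraries with the genotype differences that chose the members and carry no test. Ctsc is the member with the largest value in units of its SE. Over all genes edgeR called 0 differences (0%), with 77 (0.596%) at an unadjusted p under 0.05, and DESeq2 called 0. That share too lay well under 0.05, so the lack of calls does not show that the responses were equal.

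Other genes of the granule were then examined. By edgeR, 119 of all 12917 genes (0.921%) were called in the genotype comparison after LPS and 123 (0.952%) with vehicle, and 10.1% and 7.79% had an unadjusted p under 0.05. Of 27 further azurophil and lysosomal genes, such as lysozymes, glycosidases and acid hydrolases, 26 were tested and 0 passed edgeR's test in either genotype comparison. Their median log2 difference between Runx1KO and Control was 0.13 after LPS and 0.11 with vehicle. At an unadjusted p under 0.05 there were 3 higher and 2 lower after LPS and 4 higher and 1 lower with vehicle, and DESeq2 called 2 and 1 higher. The 2 that DESeq2 called, named after their values were seen, were Lyz1 and Arsb. Lyz1, a lysozyme gene, averaged 49.0 ± 3.77 CPM in Runx1KO LPS, 33.8 ± 3.19 CPM in Runx1KO vehicle, 27.1 ± 1.12 CPM in Control LPS and 23.1 ± 1.53 CPM in Control vehicle libraries (SD, n = 3 each). Its edgeR log2 fold change was 0.85 (SE 0.19, adjusted p = 0.0628) after LPS and 0.55 (SE 0.19, adjusted p = 0.314) with vehicle, against DESeq2 adjusted p of 7.61e-05 and 0.0341. Lyz1 and Lyz2 are close paralogs that share reads, so the split between them is uncertain. Arsb, which encodes arylsulfatase B, had an edgeR log2 fold change of 1.10 (SE 0.30, adjusted p = 0.153) after LPS.

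The tetraspanin relatives of Cd63 had 0 of 16 tested genes called by edgeR in both genotype comparisons, with 1 higher and 1 lower after LPS and 0 higher and 1 lower with vehicle at an unadjusted p under 0.05. DESeq2 called 1 lower in each, Cd81 (named after its values were seen), whose edgeR log2 fold change was -1.18 (SE 0.33, adjusted p = 0.154) after LPS and -1.53 (SE 0.33, adjusted p = 0.0552) with vehicle. The tetraspanin median was 0.08 after LPS and -0.10 with vehicle, beside -1.67 and -1.91 for Cd63. The 17 measured genes of granule sorting and maturation had 0 calls by edgeR and 0 by DESeq2 in both genotype comparisons, with 1 lower after LPS and 0 with vehicle at an unadjusted p under 0.05, and a median of 0.02 in each. Of 8 tested inhibitors of granule proteases edgeR called 0 in each genotype comparison, while 1 (Serpina3g) was higher at an unadjusted p under 0.05 and by DESeq2 in each. Serpina3g, a serpin gene named after its values were seen, averaged 7.06 ± 3.87 CPM in Runx1KO LPS, 3.19 ± 1.61 CPM in Runx1KO vehicle, 1.07 ± 1.21 CPM in Control LPS and 0.233 ± 0.130 CPM in Control vehicle libraries (SD, n = 3 each).

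Secondary granule genes, the next to be transcribed as a neutrophil matures, had 0 of 10 called by edgeR and by DESeq2 in both genotype comparisons, with 1 lower with vehicle at an unadjusted p under 0.05. Transcription factors of granule genes had 0 of 14 called by either tool, with 1 (Runx1) higher after LPS at an unadjusted p under 0.05. For all 6 of these lists edgeR and DESeq2 called 0 genes in both LPS comparisons. At an unadjusted p under 0.05, LPS in Runx1KO cells gave 1 higher and 1 lower azurophil gene and 3 higher secondary granule genes, among them Lcn2, and LPS in Control cells gave 1 higher inhibitor gene.

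Among paralogs of the member proteases and lectins, 11 of 18 were tested, and edgeR called 1 lower after LPS (Prss34) and 2 lower with vehicle (Prss34 and Mcpt8), both genes of basophil proteases. Mcpt8 is the nearest tested neighbour of Ctsg on 1 side. It had 0 counts in all Runx1KO libraries, against 152 counts over the Control LPS and 185 over the Control vehicle libraries, which with a floor of 3 counts over the group is at least 52.7-fold and at least 64.5-fold lower. It passed edgeR's test with vehicle (adjusted p = 0.0444) and not after LPS (adjusted p = 0.053). Prss34 had 0 counts in all Runx1KO libraries, against 655 over the Control LPS and 643 over the Control vehicle libraries, at least 227-fold and at least 224-fold lower (edgeR adjusted p = 0.0191 and 0.0197). Gzmb, the nearest tested neighbour of Ctsg on the other side, did not pass (edgeR adjusted p = 0.538 after LPS and 0.268 with vehicle), and DESeq2 called it lower with vehicle. Of 7 tested relatives of Ms4a3, edgeR called 1 lower in each genotype comparison, the B cell gene Ms4a1, with 1 count over the Runx1KO LPS and 0 over the Runx1KO vehicle libraries, against 76 over the Control LPS and 124 over the Control vehicle libraries.

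Some markers of basophils and mast cells, which also carry Cd63, were lower in Runx1KO libraries and others were not. Of 8 such markers 7 were tested; edgeR called 1 lower after LPS (Prss34) and 2 lower with vehicle (Prss34 and Mcpt8), and 0 higher in either comparison, where DESeq2 called 2 lower after LPS and 3 with vehicle and 0 higher, and 0 were higher at an unadjusted p under 0.05. The log2 fold change was positive for 2 of 7 after LPS and for 1 of 7 with vehicle. Of the 8, 3 (Prss34, Mcpt8 and Fcer1a) were at 0 in Runx1KO LPS and 4 (these and Cd200r3) in Runx1KO vehicle libraries. The sum of all 8 was 1270 to 4600 CPM in Runx1KO LPS, 1480 to 3500 CPM in Runx1KO vehicle, 1800 to 3940 CPM in Control LPS and 1690 to 3050 CPM in Control vehicle libraries, nearly all of it Hdc. Hdc, Gata2 and Cpa3, named after their values were seen, did not pass edgeR's test. Hdc averaged 3350 ± 1820 CPM in Runx1KO LPS, 2310 ± 1060 CPM in Runx1KO vehicle, 3070 ± 1130 CPM in Control LPS and 2410 ± 689 CPM in Control vehicle libraries (SD, n = 3 each). Gata2 had 120 counts over the Runx1KO LPS, 114 over the Runx1KO vehicle, 57 over the Control LPS and 94 over the Control vehicle libraries. Cpa3 had 19 counts over the Runx1KO LPS, 3 over the Runx1KO vehicle, 19 over the Control LPS and 31 over the Control vehicle libraries. Without Hdc the sum was 2.83, 1.26 and 2.92 CPM in Runx1KO LPS, 1.98, 1.20 and 1.72 CPM in Runx1KO vehicle, 17.5, 3.74 and 26 CPM in Control LPS and 12.3, 5.99 and 25.9 CPM in Control vehicle libraries 1, 2 and 3, and most of the Runx1KO sum was Gata2. Among the Control libraries of each treatment, this sum was lowest in number 2 and highest in number 3. Cd63 was lowest in number 2 and highest in number 1. Markers of megakaryocytes and platelets went the other way. All 8 had a positive log2 fold change of Runx1KO against Control after LPS (median 3.05) and with vehicle (median 4.1). EdgeR called 2 higher after LPS (Treml1 and Itga2b) and 4 with vehicle (these, Ppbp and Pf4), and 0 lower. The part of basophils, mast cells, megakaryocytes or platelets in the Cd63 difference was not tested.

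Markers of proliferation, which mark the early stages at which primary granule genes are transcribed, had 0 of 15 genes called by edgeR in either genotype comparison, with 2 lower at an unadjusted p under 0.05 in each and 1 lower after LPS by DESeq2. All 15 had a negative log2 fold change of Runx1KO against Control with vehicle (median -0.39) and 13 of 15 after LPS (median -0.35). Their summed level was 294 to 387 CPM in Runx1KO LPS, 226 to 353 CPM in Runx1KO vehicle, 333 to 429 CPM in Control LPS and 363 to 401 CPM in Control vehicle libraries. The log2 fold changes of Mpo, Elane, Prtn3 and Ctsg were positive in both comparisons, and those of Prss57, Ms4a3, Fcnb and Cd63 were negative. The members were chosen with genotype differences known, and the first 4 moved together, so these signs are a description. With vehicle, the signs of Mpo and Prtn3 depended on which libraries were in. The part of proliferating cells in these values was not tested.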

How the data were processed

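RNA-seq of 12 libraries (4 groups of 3) was used. The authors deposited whole-number counts per gene in 1 table, not normalized. Per the submitters' processing notes the aligner was STAR 2.6.0a, the build mm9 and the counter featureCounts, whose version, annotation and strand setting the sources used here do not give. ERCC RNA was added per the labels' protocols; spike-in scaling was not used here. Columns were matched to samples by title, with 0 left out.

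Genes were filtered with filterByExpr in edgeR 4.0.16 (R 4.3.3), TMM-scaled, and tested by quasi-likelihood in a single fit over all 4 groups, with Benjamini-Hochberg adjustment over 12917 genes and a threshold of 0.05. DESeq2 1.42.0, other scalings and filters, left-out libraries and library number as a block were alternatives. The code was tested on simulated data, where it missed the recovery mark first set; the marks were reset after further simulations had been seen, with the code unchanged. Log2 CPM used a prior count of 2. The SE given with an edgeR log2 fold change was derived as its absolute value divided by the square root of the test's F statistic. Reads carry no molecular identifiers, so floors (3 counts over a group) cover counting error only. No libraries agreed within sampling noise (lowest chi-square per degree of freedom 9.91).

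The members and gene lists were chosen with earlier results of these data known. All members are named; of the lists, genes past the threshold, up to 4 per direction; for likeness, the 3 with the highest r with Cd63 and with Mpo; and neighbours of Prss57, Ctsg and Cd63. Count ratios, the sum of Cd63 and its copy, levels per kilobase, the basophil sum without Hdc and the letter runs searched were chosen after seeing the data.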

Additional observations from a re-analysis of the deposited data

How the results depend on the processing

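The genotype differences of Prss57, Ms4a3, Fcnb, Cd63 and Ctsc kept their sign under 21 of 21 alternatives in both treatments; without single libraries or whole numbers the values ran, after LPS and with vehicle, from -1.80 to -1.52 and -2.08 to -1.70 for Cd63, -1.89 to -0.46 and -2.84 to -1.81 for Prss57, -1.03 to -0.43 and -1.35 to -0.70 for Ms4a3, -1.55 to -0.74 and -1.89 to -1.16 for Fcnb, and 1.18 to 1.55 and 0.28 to 0.97 for Ctsc. With vehicle the sign of Mpo (-0.01 to 1.55 with libraries left out) and Prtn3 (-0.07 to 1.20) depended on which libraries were in. The LPS responses were less settled. With libraries left out, the Runx1KO values ran from -0.96 to 0.04 for Mpo, -0.54 to 0.25 for Elane, -0.43 to 0.27 for Prtn3, -0.80 to 0.05 for Ctsg and -0.18 to 0.78 for Fcnb. The Control values ran from -1.58 to 0.26 for Mpo, -1.26 to 0.35 for Elane, -1.41 to 0.12 for Prtn3, -1.33 to 0.70 for Ctsg, -1.30 to 0.21 for Prss57, -0.04 to 0.35 for Ms4a3, -0.36 to 0.15 for Fcnb and -0.23 to 0.07 for Cd63. In Runx1KO cells, library size alone turned Cd63 to -0.14, and it moved the median of all genes to -0.281; the replicate block turned Prtn3 to 0.01. In the difference of the responses, the values ran from -0.83 to 1.00 for Mpo, -0.56 to 1.03 for Elane, -0.28 to 1.22 for Prtn3, -1.14 to 0.87 for Ctsg and -0.11 to 0.85 for Fcnb.

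The number of genes called by genotype depended on the tool and the libraries. The main counts were 119 after LPS and 123 with vehicle, the replicate block gave 302 and 315, and DESeq2 gave 401 and 386, with 1 call for LPS in Runx1KO cells. Without any 1 library the counts ran from 49 to 135 after LPS and 47 to 171 with vehicle. After LPS the count moved by over 1.5 times without Runx1KO LPS library 2 (53) or 3 (62) or Control LPS library 1 (66), 2 (61) or 3 (49). With vehicle it did so without Runx1KO vehicle library 1 (57), 2 (62) or 3 (66) or Control vehicle library 1 (47), 2 (70) or 3 (52). Without all 4 libraries of number 1, 2 or 3, the counts were 3, 4 and 25 after LPS and 2, 1 and 6 with vehicle, with fewer samples in each fit. Same-numbered libraries correlated at -0.0535 to 0.667 (18 pairs, median 0.398) and others at -0.527 to 0.218 (36 pairs, median -0.218). Of the 12 libraries 11 correlated best with their own number, a hint from the data. Since not every pair passed 0.1 and the labels name no shared animal, the main fit did not use the numbers as pairs. They served as a block in an alternative fit. The ratios of LPS over vehicle within each number paired them as a description only. Low counts limit Prss57 most, with 7 counts in 1 library. The causes of these changes were not tested.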
